A study of Danio rerio with 32 samples.

Results

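The integrated stress response genes described here are 10 zebrafish genes chosen by symbol from the 32520 genes of the deposited tables: eif2ak4, atf4a, atf4b, ddit3, atf3, trib3, chac1, asns, sesn2 and ddit4. RNA came from whole larvae at 20 days post fertilization, fed either a low protein (LP) or a high protein (HP) diet, in 2 experiments with 32 libraries. Experiment 1 held larvae with the new pllp mutation pd1245, for which the submitters record poorer survival on restricted food. It also held larvae with the old pllp mutation pd1116, in which they record that this defect has adapted, and the EK strain as wild type. Each line and diet of experiment 1 had 3 libraries. Experiment 2 held pd1245 larvae labelled as adapted, and EK, with 4 LP and 3 HP libraries per line. No transgene is named in the labels. pllp encodes plasmolipin, a membrane protein of gut epithelium. The labels do not say whether libraries come from separate tanks, clutches or animals. The p-values therefore measure only the spread between these samples, estimated over all groups of an experiment together.

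The integrated stress response couples amino acid shortage and other stresses to a brake on protein synthesis. Kinases such as GCN2, the product of eif2ak4, phosphorylate the initiation factor eIF2, which lowers general translation while translation of ATF4 goes up. ATF4 then drives genes for amino acid supply, further transcription factors and feedback inhibitors. ATF4 is controlled largely at translation, and mRNA counts do not measure that step or eIF2 phosphorylation.

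Experiment 1 had 19838912 to 29147958 counts per library and experiment 2 had 3713048 to 12929536, the lowest being replicate 2 of EK on HP. pllp itself stood at 3.39 to 10.2 CPM (counts scaled to a common library size, as edgeR gives them) in pd1245 larvae and 6.46 to 8.03 CPM in pd1116 larvae, against 11.3 to 17.1 CPM in EK larvae of experiment 1. It stood at 5.41 to 7.72 CPM in the adapted line against 24.6 to 38.3 CPM in EK of experiment 2. Replicate 3 of pd1245 on LP stood apart: genes of cytosolic ribosomal proteins took 14.0% of its counts, against 8.83% and 8.61% in the other pd1245 libraries on LP. Its scaling factor was 0.832, whereas the rest of the experiment lay between 0.971 and 1.06. It was the highest of the 3 pd1245 libraries on LP for 8 of the 9 stress response genes tested and the lowest for asns, so results that rest on it are given with and without it. The 2 experiments differ in library kit and counting and were tested separately. CPM values are not corrected for gene length, so they compare libraries within a gene and not genes with each other.

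The question for the diet was how LP differed from HP within each line. In pd1245 larvae 4 of the 9 genes tested were higher on LP (trib3, atf3, sesn2 and eif2ak4), asns was lower, and the other 4 did not pass an adjusted p of 0.05. These 5 calls come from the fit of all groups of experiment 1 and stand beside 19.1% of all genes called. The members were chosen with earlier results of these data known. Values for all genes, here and below, are therefore given only as a background, and no enrichment of the set is drawn from them. None of the 5 diet calls in pd1245 remained when the pd1245 groups were fitted alone, a fit in which no gene of any kind was called. In the fit of all groups the median log2 fold change of the 9 genes was 0.46, beside 0.01 over all genes tested. In pd1116 larvae only eif2ak4 passed. No member passed in EK of either experiment or in the adapted pd1245 line.

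**Figure D1:**
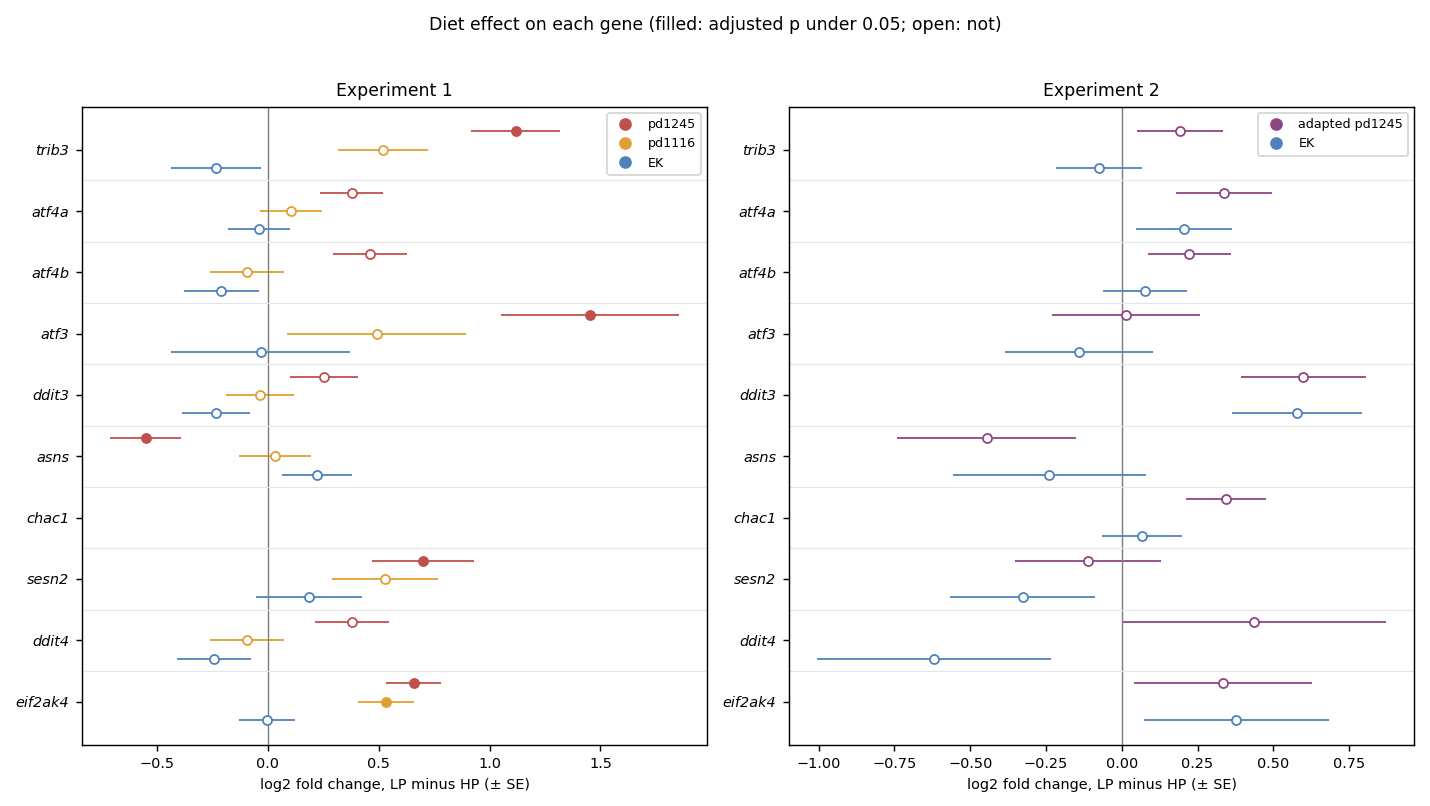
Log2 fold change, LP minus HP, with its SE for each gene (rows) in experiment 1 (left: pd1245, pd1116, EK) and experiment 2 (right: adapted pd1245, EK); filled points had an adjusted p under 0.05. The 5 filled pd1245 points are trib3, atf3, sesn2 and eif2ak4 to the right of 0 and asns to the left, and the only other filled point is eif2ak4 in pd1116; chac1 has no point in experiment 1.

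Of the sensor end of the pathway, eif2ak4, the kinase that senses uncharged tRNA, had 30.7, 32.7 and 43.5 CPM in pd1245 larvae on LP, against 25.3, 23.0 and 19.3 CPM in pd1245 larvae on HP. All LP libraries lay above all HP libraries. The share of all genes separated in this way is not given, here and for the genes below. The log2 fold change was 0.66 ± 0.12 (SE; adjusted p = 0.00273, edgeR quasi-likelihood test). pd1116 larvae showed the same order, with 25.9, 24.1 and 25.5 CPM on LP against 17.9, 18.9 and 15.4 CPM on HP. There the log2 fold change was 0.53 ± 0.13 (adjusted p = 0.0167), in a comparison that called 6.79% of all genes and 1 of the 9 members. That call was lost without replicate 3 on HP (highest adjusted p = 0.101 over all settings) and without replicate 1 or 3 on LP. EK larvae of experiment 1 had 21.6, 20.7 and 20.2 CPM on LP and 19.0, 22.1 and 21.6 CPM on HP, which overlapped. In whole larvae a change in how many cells of a type are present and a change in RNA per cell cannot be told apart, here and below.

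The transcription factor genes moved unequally in pd1245 larvae. atf4a, 1 of the zebrafish copies of the gene for ATF4, had 178, 179 and 298 CPM on LP against 156, 182 and 167 CPM on HP. atf4b had 147, 144 and 273 CPM on LP against 127, 145 and 137 CPM on HP. For both copies only replicate 3 was clear of the HP libraries, and the log2 fold changes of 0.38 ± 0.14 (atf4a, adjusted p = 0.0656) and 0.46 ± 0.17 (atf4b, adjusted p = 0.0591) did not pass. ddit3, which encodes the pro-apoptotic factor CHOP, had 38.9, 43.7 and 61.2 CPM on LP against 40.4, 42.6 and 37.3 CPM on HP, with overlap and a log2 fold change of 0.25 ± 0.15 (adjusted p = 0.254).

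atf3, a factor induced by many stresses, had 20.7, 27.9 and 63.4 CPM in pd1245 larvae on LP, against 13.4, 12.9 and 14.3 CPM on HP. The groups did not overlap, and the spread among the LP libraries was wide. The log2 fold change of atf3 was 1.45 ± 0.40 (adjusted p = 0.0187). In the other lines 1 LP library was high for atf3: pd1116 had 12.7, 9.17 and 28.8 CPM on LP against 13.2, 11.3 and 12.1 CPM on HP, and EK had 12.2, 9.33 and 22.6 CPM on LP against 19.3, 15.2 and 10.5 CPM on HP. Neither passed.

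trib3 encodes a pseudokinase that is induced by ATF4 and CHOP and feeds back on them. It had 61.3, 76.4 and 125 CPM in pd1245 larvae on LP, against 36.8, 45.7 and 38.5 CPM on HP. The lowest LP library lay above the highest HP library, and the log2 fold change was 1.12 ± 0.20 (adjusted p = 0.00218). In pd1116 larvae trib3 had 31.5, 33.9 and 45.8 CPM on LP against 26.7, 25.6 and 25.5 CPM on HP, again without overlap, but its log2 fold change of 0.52 ± 0.20 did not pass (adjusted p = 0.131). EK larvae of experiment 1 had 37.6, 29.1 and 36.9 CPM on LP and 46.8, 41.2 and 33.7 CPM on HP, with overlap and a log2 fold change of -0.23 ± 0.20 (adjusted p = 0.879).

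asns encodes asparagine synthetase, a classical ATF4 target, and went the other way. It had 31.6, 22.9 and 19.4 CPM in pd1245 larvae on LP, against 38.5, 30.1 and 39.9 CPM on HP. Replicate 1 on LP lay above the lowest HP library, so the groups overlapped, and the log2 fold change was -0.55 ± 0.16 (adjusted p = 0.0240). In pd1116 larvae it had 23.4, 16.4 and 22.8 CPM on LP and 19.6, 19.2 and 22.4 CPM on HP, a log2 fold change of 0.03 ± 0.16. In EK it had 33.9, 36.2 and 37.8 CPM on LP against 26.8, 33.0 and 32.6 CPM on HP, and the log2 fold change of 0.22 ± 0.16 did not pass (adjusted p = 0.818).

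The genes that restrain mTORC1 signalling were sesn2 and ddit4. sesn2, which encodes the leucine sensor Sestrin 2, had 7.63, 6.02 and 13.4 CPM in pd1245 larvae on LP, against 4.74, 5.85 and 5.85 CPM on HP. The groups did not overlap, but replicate 2 on LP was only just above the HP libraries, and the log2 fold change was 0.70 ± 0.23 (adjusted p = 0.0398). In pd1116 larvae sesn2 had 5.76, 4.76 and 6.95 CPM on LP against 4.46, 4.14 and 3.58 CPM on HP, with a log2 fold change of 0.53 ± 0.24 that did not pass (adjusted p = 0.193). ddit4, which encodes the mTORC1 inhibitor REDD1, had 65.6, 69.3 and 93.1 CPM in pd1245 larvae on LP against 43.4, 67.6 and 64.0 CPM on HP. These overlapped, and its log2 fold change of 0.38 ± 0.17 did not pass (adjusted p = 0.114).

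**Figure D2:**
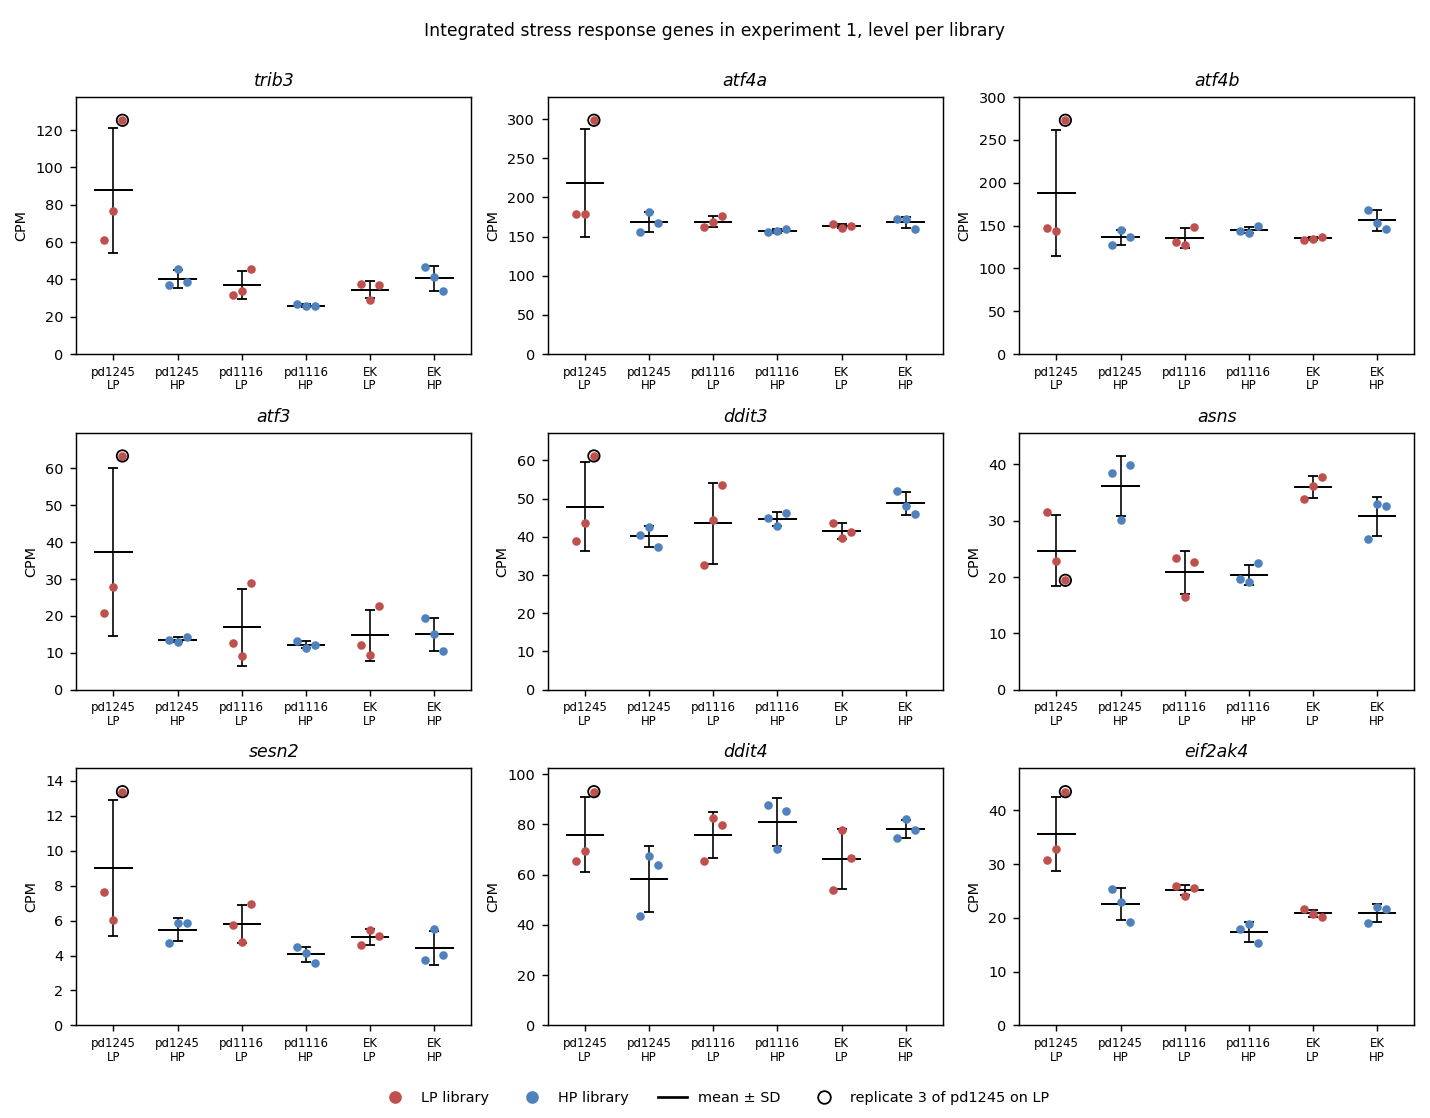
CPM per library (points) with the mean and SD of each group (lines) for the 9 genes tested in experiment 1, with red LP and blue HP libraries and a ring around replicate 3 of pd1245 on LP. The ringed library is the highest of its group in every panel but asns. In the trib3, atf3, sesn2 and eif2ak4 panels all 3 pd1245 LP libraries lie above all pd1245 HP libraries. The share of all genes separated in this way is not given, so no result about the set is drawn.

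EK larvae of experiment 1 had none of the 9 genes called for diet, beside 0.154% of all genes. The count was 0 of 9 at an unadjusted p under 0.05 and also 0 with DESeq2. The log2 fold changes ran from -0.24 (ddit4) to 0.22 (asns). EK of experiment 2 likewise had 0 of 10 called, beside 0.078% of all genes, with 1 gene at an unadjusted p under 0.05 (ddit3) and 0 with DESeq2.

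Whether the diet effect in pd1245 differed from that in EK was tested as an interaction, which called 3 of the 9 genes beside 5.7% of all genes. The log2 difference of diet effects was 1.35 ± 0.28 for trib3 (adjusted p = 0.0131), 0.66 ± 0.18 for eif2ak4 (adjusted p = 0.0366) and -0.77 ± 0.22 for asns (adjusted p = 0.0499). atf3 had a larger difference with a larger error, 1.48 ± 0.57, and did not pass (adjusted p = 0.119). trib3 kept its call in all 25 other settings, while eif2ak4 lost it in 9 and asns in 17. The interaction of pd1116 with EK called 0 of the 9 genes beside 0.0044% of all genes (2 at an unadjusted p under 0.05, 0 with DESeq2). A member was called there when only the groups compared were fitted, with the share of all genes given at the end. In the fit of all groups the interaction between pd1245 and pd1116 also called 0, beside 0.616% of all genes (2 at an unadjusted p under 0.05, 0 with DESeq2). For trib3 the difference between the diet effects of pd1245 and pd1116 did not pass, at 0.60 ± 0.28 (adjusted p = 0.316), and for eif2ak4 it was 0.12 ± 0.18 (adjusted p = 0.759).

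Between lines on the same food, 7 of the 9 genes differed in pd1245 larvae from EK larvae on LP, beside 31.8% of all genes. Those higher were trib3 (log2 fold change 1.34 ± 0.20, adjusted p = 0.000152), eif2ak4 (0.77 ± 0.13, adjusted p = 0.000275), atf3 (1.34 ± 0.40, adjusted p = 0.0161), sesn2 (0.81 ± 0.23, adjusted p = 0.0125), atf4a (0.42 ± 0.14, adjusted p = 0.0300) and atf4b (0.48 ± 0.17, adjusted p = 0.0368). asns was lower, at -0.54 ± 0.16 (adjusted p = 0.0157). trib3 had at least 61.3 CPM in every pd1245 library on LP and at most 37.6 CPM in every EK library on LP. This comparison and the diet comparison within pd1245 share the pd1245 libraries on LP, so they are not independent of each other.

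On HP none of the 9 genes differed between pd1245 and EK larvae, beside 4.16% of all genes. There 1 gene had an unadjusted p under 0.05 (ddit4, log2 fold change -0.42 ± 0.17), and DESeq2 called 0. trib3 had 36.8, 45.7 and 38.5 CPM in pd1245 larvae on HP and 46.8, 41.2 and 33.7 CPM in EK larvae on HP, a log2 fold change of -0.01 ± 0.20. These overlapped. In atf4b, ddit3 and ddit4 every pd1245 library on HP lay below every EK library on HP, although none passed. The share of all genes separated in this way is not given, so no result about the set is drawn. atf4b stood at 127 to 145 CPM in pd1245 against 146 to 169 CPM in EK (log2 fold change -0.19 ± 0.17, adjusted p = 0.624). ddit3 stood at 37.3 to 42.6 CPM in pd1245 against 46.0 to 52.1 CPM in EK (-0.28 ± 0.15, adjusted p = 0.373), and ddit4 at 43.4 to 67.6 CPM in pd1245 against 74.7 to 82.0 CPM in EK (adjusted p = 0.181).

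Without replicate 3 of pd1245 on LP, 2 of the 9 genes were called for diet in pd1245, beside 11.6% of all genes. trib3 had a log2 fold change of 0.77 ± 0.15 (adjusted p = 0.00485) and eif2ak4 one of 0.49 ± 0.11 (adjusted p = 0.00695). atf3 was then at 0.85 ± 0.35 (adjusted p = 0.124), sesn2 at 0.32 ± 0.18 (adjusted p = 0.270) and asns at -0.41 ± 0.15 (adjusted p = 0.0880), all short of the threshold. atf4a was at 0.09 ± 0.08 and atf4b at 0.09 ± 0.09, and the median over the 9 genes was 0.21. Over 25 other settings the diet call in pd1245 was lost in 4 for atf3, in 5 for asns, in 8 for sesn2 and in 1 for each of trib3 and eif2ak4.

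The comparison of pd1245 with EK on LP likewise kept trib3, at 0.99 ± 0.15 (adjusted p = 0.000192), and eif2ak4, at 0.60 ± 0.11 (adjusted p = 0.00052), when that library was left out. The other 5 calls were lost, with atf4a at 0.12 ± 0.08 and atf4b at 0.10 ± 0.09. In the interaction with EK, trib3 kept its call at 1.00 ± 0.21 (adjusted p = 0.0105), whereas eif2ak4 (0.49 ± 0.14, adjusted p = 0.0502) and asns (-0.64 ± 0.20, adjusted p = 0.0685) did not. The same omission also moved comparisons that do not contain the library. Those comparisons share 1 fit, and its estimate of the spread, with this library. For diet in pd1116, trib3 had been at 0.52 ± 0.20 with all libraries. The cause was not tested. In pd1116 larvae 3 genes were then higher on LP: eif2ak4, trib3 (0.52 ± 0.14, adjusted p = 0.0196) and sesn2 (0.53 ± 0.17, adjusted p = 0.0410). On HP, pd1116 larvae then had 2 genes lower than EK larvae, trib3 (-0.64 ± 0.14, adjusted p = 0.0106) and asns (-0.58 ± 0.14, adjusted p = 0.0154). With all libraries, diet in pd1116 called 6.79% of all genes and pd1116 against EK on HP 2.9%. Their shares without this library are given only within the ranges at the end, so no result about the set is drawn from these counts.

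**Figure D3:**
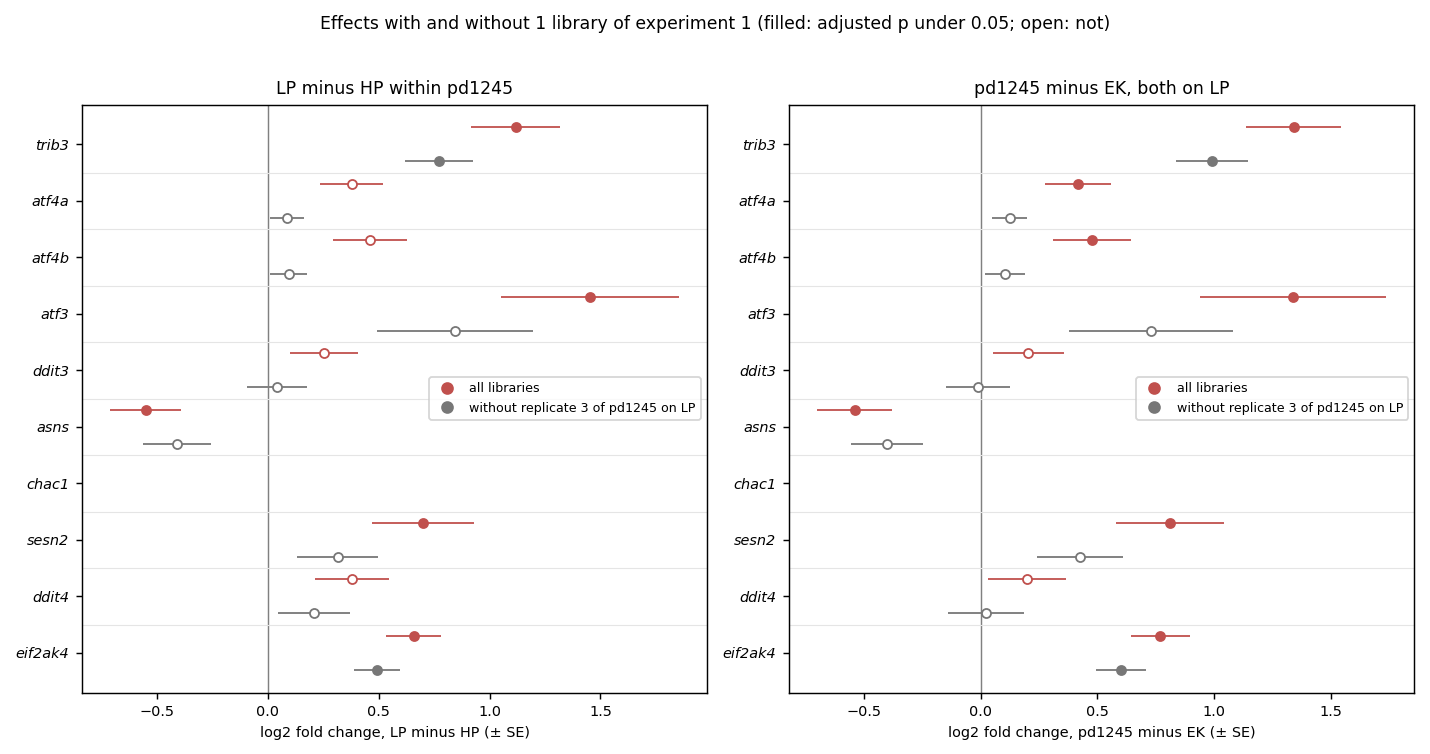
Log2 fold changes with SE for LP minus HP within pd1245 (left) and pd1245 minus EK on LP (right), from all libraries (red) and without replicate 3 of pd1245 on LP (grey); filled points had an adjusted p under 0.05. In both panels trib3 and eif2ak4 are filled either way, and every other red filled point turns into an open grey one nearer to 0.

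Marker genes of tissues moved in the same libraries. Of 8 marker lists, 2 lay above and 2 below in pd1245 larvae on LP against pd1245 larvae on HP, without overlap. How often lists of other genes separate in this way was not tested, here and in the next comparison. Neuron markers (3 of 4 listed were matched) summed to 569 to 750 CPM on LP against 446 to 531 CPM on HP. Fast muscle markers (2 of 4 matched) summed to 6080 to 10512 CPM against 4610 to 5810 CPM. Replicate 3 was the highest LP library for both. Without it the LP libraries, at 569 and 600 CPM (neuron) and 6080 and 6781 CPM (fast muscle), still lay above HP. Erythrocyte markers (4 of 4 matched) summed to 281 to 323 CPM on LP against 391 to 597 CPM on HP, and keratinocyte markers (4 of 4 matched) to 12654 to 14397 CPM against 15079 to 16620 CPM. Such separation by diet was not particular to pd1245. In EK of experiment 1 hepatocyte (5674 to 6362 CPM on LP against 4539 to 5120 CPM on HP), enterocyte and keratinocyte markers lay above on LP. Fast muscle (4913 to 6288 CPM against 7544 to 8783 CPM) and neutrophil and macrophage markers (6.68 to 7.37 CPM against 7.62 to 12.0 CPM) lay below in EK. The neutrophil and macrophage list matched only lyz and genes with the symbol MFAP4, all at low levels. In pd1116 hepatocyte, exocrine pancreas and erythrocyte markers lay below on LP.

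Against EK larvae on LP, 3 lists lay below and 1 above in pd1245 larvae on LP. Hepatocyte markers (4 of 4 matched) summed to 2509 to 2930 CPM in pd1245 against 5674 to 6362 CPM in EK, and enterocyte markers (4 of 4 matched) to 2592 to 3043 CPM against 3762 to 4211 CPM. Erythrocyte markers summed to 281 to 323 CPM in pd1245 against 627 to 640 CPM in EK, and neuron markers to 569 to 750 CPM against 464 to 481 CPM. The other 4 lists overlapped in each comparison. hbaa1, an erythrocyte marker, was at 0 counts in 14 of the 18 libraries. The part of these shifts, and of the ribosomal protein share of replicate 3, in the stress gene results was not tested.

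In larvae with the old mutation the gene that differed from EK was asns. On LP, pd1116 larvae had 23.4, 16.4 and 22.8 CPM of asns against 33.9, 36.2 and 37.8 CPM in EK larvae, with no overlap. The log2 fold change was -0.78 ± 0.16 (adjusted p = 0.00573), the only call among the 9 genes, beside 6.68% of all genes. On HP, pd1116 larvae had 19.6, 19.2 and 22.4 CPM of asns against 26.8, 33.0 and 32.6 CPM in EK larvae. These did not overlap either, and the log2 fold change of -0.59 ± 0.16 just missed the threshold (adjusted p = 0.0530). On HP 0 of the 9 genes were called by edgeR, beside 2.9% of all genes, with 3 at an unadjusted p under 0.05 and 1 with DESeq2. trib3 on HP was the second of these 3, with 26.7, 25.6 and 25.5 CPM in pd1116 against 46.8, 41.2 and 33.7 CPM in EK and a log2 fold change of -0.65 ± 0.20 (adjusted p = 0.107). The last was eif2ak4, lower in pd1116 than in EK on HP at -0.27 ± 0.13 (edgeR adjusted p = 0.371). On LP eif2ak4 stood at 0.27 ± 0.13 against EK (edgeR adjusted p = 0.221).

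chac1, whose product degrades glutathione and which is an ATF4 target in mammals, could not be tested in experiment 1. It was at 0 counts in all 18 libraries, which allows at most 0.103 to 0.169 CPM per library at the 3 counts a 0 leaves possible. In experiment 2 it had 2850 to 10488 counts per library. Of the 2557 genes at 0 throughout experiment 1, 3 averaged at least 100 CPM in experiment 2 and chac1 was the highest of them. In RefSeq's annotation of assembly GRCz12tu the nearest gene to chac1 is ino80, with no overlap, and the deposited values of chac1 were fractional in 9 of the 14 libraries. The cause of the 0 counts was not tested, and nothing is drawn from chac1 across the experiments.

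In experiment 2 the adapted pd1245 line had 0 of the 10 genes called for diet, beside 1.88% of all genes, with 3 at an unadjusted p under 0.05 and 0 with DESeq2. A member was called when the adapted groups were fitted alone, with the share of all genes given at the end. In the fit of all groups the median log2 fold change of the 10 genes was 0.28, beside 0.01 over all genes tested. chac1 had 568, 751, 709 and 725 CPM in adapted larvae on LP, against 561, 574 and 492 CPM on HP. Only replicate 1 on LP fell within the HP range, and the log2 fold change was 0.34 ± 0.13 (adjusted p = 0.160). ddit3 had 10.5, 11.2, 12.2 and 13.7 CPM on LP against 7.82, 7.89 and 7.86 CPM on HP, without overlap, and a log2 fold change of 0.60 ± 0.21 (adjusted p = 0.121). atf4a had 82.7, 87.7, 88.4 and 76.7 CPM on LP against 68.0, 62.4 and 68.8 CPM on HP, also without overlap (0.34 ± 0.16, adjusted p = 0.249). For these genes, and for trib3 below, the share of all genes separated in this way is not given. No rise of the set is drawn from the separation.

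trib3, which was higher on LP in the new pd1245 line, had 69.6, 77.4, 70.8 and 82.3 CPM in adapted larvae on LP against 68.9, 65.6 and 62.5 CPM on HP. The lowest LP library was just above the highest HP library, and the log2 fold change was 0.19 ± 0.14 (adjusted p = 0.474). EK larvae of experiment 2 had 67.1, 98.4, 85.1 and 64.7 CPM of trib3 on LP and 78.3, 89.1 and 82.0 CPM on HP, with overlap and a log2 fold change of -0.07 ± 0.14. The new and the adapted pd1245 larvae stand in separate experiments, so their diet effects were not tested against each other. The interaction of the adapted line with EK called 0 of 10 genes, beside 0% of all genes (0 at an unadjusted p under 0.05 and 0 with DESeq2).

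EK larvae of experiment 2 showed a ddit3 effect of similar size to that of the adapted line, also short of the threshold. They had 11.8, 15.6, 8.87 and 9.17 CPM on LP against 7.33, 5.08 and 9.69 CPM on HP, which overlapped. The log2 fold change was 0.58 ± 0.21 (adjusted p = 0.297), and the difference between the lines was 0.02 ± 0.30 (adjusted p = 0.999). Counts were low for asns (7 to 24 per library) and eif2ak4 (3 to 43 per library) in experiment 2 and the SEs of both genes were wider than in experiment 1. Their levels there were at most 2.1 CPM of asns and 3.45 CPM of eif2ak4 in any library. The experiments differ in library kit and counting, so no change of level between them is drawn from this. eif2ak4 had a log2 fold change of 0.33 ± 0.29 in adapted larvae and 0.38 ± 0.30 in EK larvae, and asns -0.45 ± 0.29 and -0.24 ± 0.32 in the same order.

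**Figure D4:**
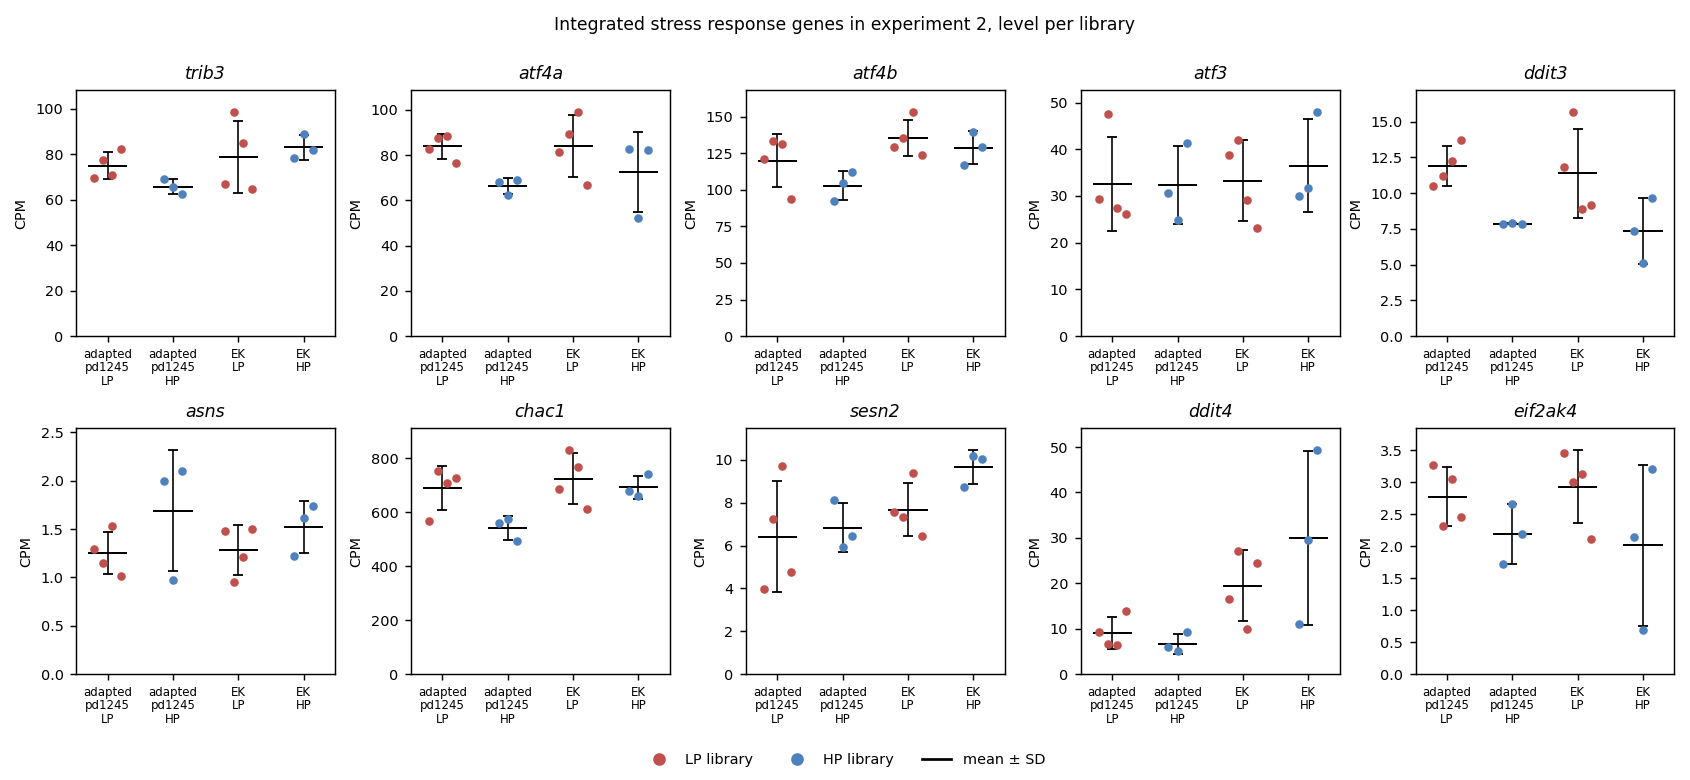
CPM per library (points) with the mean and SD of each group (lines) for the 10 genes in experiment 2, with red LP and blue HP libraries. For ddit3, atf4a and trib3 the 4 adapted LP libraries lie above the 3 adapted HP libraries, and for ddit4 the 3 adapted HP libraries, at 4.97 to 9.17 CPM, lie below the EK HP libraries, at 11.0 to 49.3 CPM. The diet effects of ddit3, atf4a and trib3 did not pass, and the share of all genes separated in this way is not given.

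Adapted larvae differed from EK larvae in ddit4 on HP, the 1 gene of 10 called there, beside 1.44% of all genes. ddit4 had 5.91, 4.97 and 9.17 CPM in adapted larvae on HP, against 11.0, 29.5 and 49.3 CPM in EK larvae on HP. The groups did not overlap, though the EK libraries were far apart, and the log2 fold change was -2.16 ± 0.45 (adjusted p = 0.0169). Without the highest library, replicate 3 of EK on HP, it was -1.51 ± 0.45 (adjusted p = 0.0901). The call was also lost without replicate 1 or without replicate 2 of the adapted larvae on HP. All adapted libraries on HP also lay below all EK libraries on HP for trib3, atf4b, chac1 and sesn2. Their log2 fold changes of -0.34, -0.32, -0.35 and -0.49 did not pass (edgeR adjusted p of 0.332, 0.340, 0.270 and 0.415). How many of all genes separate in this way is not given, so no drop of the set is drawn from this. On LP ddit4 had 9.19, 6.59, 6.44 and 13.8 CPM in adapted larvae against 16.5, 27.0, 9.87 and 24.5 CPM in EK larvae, with overlap and a log2 fold change of -1.11 ± 0.38 (adjusted p = 0.174). On LP 0 of the 10 genes were called, beside 2.36% of all genes, with 1 at an unadjusted p under 0.05 (ddit4) and 0 with DESeq2. A member was called there when no filter on low counts was used, with the share of all genes given at the end.

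Other genes of the pathway came from 8 lists with 64 symbols, of which 48 matched 50 genes. These lists too were chosen with earlier results of these data known, so no enrichment is drawn from their counts. In pd1245 larvae 10 of these 50 were higher and 6 lower on LP than on HP, in a comparison that called 9.33% of all genes higher and 9.78% lower. Their median log2 fold change was 0.10. When replicate 3 of pd1245 on LP was left out, 5 were higher and 2 lower. Against EK larvae on LP, 12 were higher and 8 lower in pd1245 larvae, beside 16% and 15.8% of all genes, and 9 were higher and 8 lower without that library. The shares of all genes higher and lower without that library are not given, so nothing about the lists is drawn from these changes in count.

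Upstream of eIF2, GCN1, which encodes the coactivator of GCN2, averaged 305 ± 8.15 CPM in pd1245 larvae on LP and 222 ± 27.2 CPM on HP (SD, n = 3 each), a log2 fold change of 0.46 ± 0.11 (adjusted p = 0.00837 by edgeR). This call was lost without replicate 3 on HP and when the groups compared were fitted alone (highest adjusted p = 0.149). dele1, which relays mitochondrial stress to the response, averaged 25.8 ± 5.63 CPM in pd1245 larvae on LP and 17.5 ± 1.07 CPM in EK larvae on LP (adjusted p = 0.00196 by edgeR). The kinase and activator list had 2 of 7 genes higher and 1 lower for diet in pd1245, beside 9.33% and 9.78% of all genes.

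Among the amino acid genes that ATF4 drives in mammals, calls for diet in pd1245 larvae were made in both directions. pycr1b, a proline synthesis gene, averaged 74.6 ± 16.4 CPM in pd1245 larvae on LP and 44.9 ± 2.63 CPM on HP, a log2 fold change of 0.73 ± 0.12 (adjusted p = 0.0016). PHGDH, the entry enzyme of serine synthesis, averaged 31.1 ± 3.67 CPM on LP and 43.9 ± 9.12 CPM on HP, a log2 fold change of -0.50 ± 0.14 (adjusted p = 0.0192). The PHGDH call was lost in 4 of 25 other settings, among them leaving out replicate 1 or 3 on HP or replicate 2 on LP (highest adjusted p = 0.170). slc7a11, the cystine transporter gene, had 7.30, 5.71 and 5.08 CPM in pd1245 larvae on LP, against 8.44, 10.6 and 15.3 CPM on HP, with no overlap and a log2 fold change of -0.92 ± 0.23 (adjusted p = 0.0124), a call lost without replicate 3 on HP and when the groups compared were fitted alone. Against EK larvae on LP, which had 12.7, 14.7 and 16.4 CPM, slc7a11 was lower by a log2 fold change of -1.27 ± 0.23 (adjusted p = 0.000654). pck2, the mitochondrial PEP carboxykinase gene, was also lower there, at -0.65 ± 0.16 (adjusted p = 0.00489). In the serine, one-carbon and proline list 2 of 13 genes were higher and 2 lower for diet in pd1245, beside 9.33% and 9.78% of all genes. Against EK on LP 2 of the 13 were higher and 4 lower, beside 16% and 15.8% of all genes.

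Of the brakes on mTORC1 and translation, both genes with the symbol eif4ebp3, which encode repressors of the cap-binding protein eIF4E, were higher on LP in the new and the adapted pd1245 lines. In EK of experiment 2 neither copy passed. There too every LP library lay above every HP library, but the share of all genes separated in this way is not given. eif4ebp3 (ENSDARG00000054916) had 47.5, 61.9 and 89.1 CPM in pd1245 larvae on LP against 25.5, 42.5 and 28.4 CPM on HP, a log2 fold change of 1.04 ± 0.20 (adjusted p = 0.00276). In the adapted line it had 76.4, 97.0, 66.7 and 87.7 CPM on LP against 25.0, 38.2 and 22.5 CPM on HP, a log2 fold change of 1.52 ± 0.28 (adjusted p = 0.00902). In neither line did the groups overlap, and the call in the adapted line was lost without replicate 1 or 3 on HP (highest adjusted p = 0.0803). In pd1116 larvae it was also higher on LP, with 30.7, 42.6 and 44.7 CPM against 24.8, 24.4 and 23.3 CPM on HP (0.71 ± 0.20, adjusted p = 0.0396), the only call among the 50 genes in that comparison (6.79% of all genes were called) and lost in 8 of 25 other settings. The value in pd1245 was 0.77 ± 0.17 (adjusted p = 0.00895) when replicate 3 on LP was left out.

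The second copy, EIF4EBP3 (ENSDARG00000041607), averaged 205 ± 68.1 CPM in pd1245 larvae on LP and 107 ± 20.0 CPM on HP (0.93 ± 0.18 on the log2 scale, adjusted p = 0.00343). In the adapted line it averaged 199 ± 37.1 CPM on LP and 68.7 ± 20.3 CPM on HP (1.53 ± 0.27, adjusted p = 0.00745), a call also lost without replicate 1 or 3 on HP (highest adjusted p = 0.0779). SESN1, a paralog of sesn2, averaged 237 ± 70.3 CPM in adapted larvae on LP and 86.5 ± 15.0 CPM on HP (1.45 ± 0.24, adjusted p = 0.00451). These were the 3 genes of 47 tested that were called for diet in the adapted line, all higher, beside 1.1% of all genes called higher. The interaction of the adapted line with EK called none of the 47 (4 at an unadjusted p under 0.05, 0 with DESeq2), so none of these effects was shown to differ from EK. EK of experiment 2 had none called for diet by edgeR (6 at an unadjusted p under 0.05, 1 with DESeq2). All 4 EK libraries on LP lay above all 3 EK libraries on HP for each of the 3 genes. The share of all genes separated in this way in EK is not given, so no diet effect in EK is drawn from this. EK of experiment 2 had 50.2, 130, 60.3 and 56.0 CPM of eif4ebp3 on LP against 35.7, 42.0 and 41.1 CPM on HP (0.91 ± 0.27 on the log2 scale, adjusted p = 0.199). It had 133 to 296 CPM of EIF4EBP3 on LP against 76.6 to 122 CPM on HP (0.75 ± 0.26, adjusted p = 0.267), and 131 to 270 CPM of SESN1 on LP against 104 to 123 CPM on HP (0.66 ± 0.23, adjusted p = 0.266). Replicate 2 on LP was the highest EK library for all 3. In the new pd1245 line DEPTOR, which encodes an mTOR-binding inhibitor, was lower on LP (-0.43 ± 0.14, adjusted p = 0.0337), as was sesn3 (-0.36 ± 0.11, adjusted p = 0.0344), and without replicate 3 of pd1245 on LP neither passed.

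IMPACT, which in mammals encodes an inhibitor of GCN2 activation, differed between lines. It had 0.228, 0, 0.109 and 0.0848 CPM in adapted larvae on LP, against 11.0, 13.1, 11.1 and 11.6 CPM in EK larvae on LP. On HP it had 0.0953, 0.177 and 0.175 CPM in adapted larvae against 10.9, 2.77 and 9.69 CPM in EK larvae. The fitted log2 fold changes, which depend on the prior count at levels this near 0, were -6.62 ± 0.44 on LP (adjusted p = 4.44e-08) and -5.68 ± 0.51 on HP (adjusted p = 3.17e-06). In experiment 1 the pattern was another: pd1245 had 1.60 to 3.39 CPM over its 6 libraries, pd1116 had 9.98 to 12.3 CPM, and EK had 0 to 6.03 CPM. pd1116 larvae exceeded EK larvae on HP (2.15 ± 0.54, adjusted p = 0.0364), a call lost in 8 of 25 other settings. These were DESeq2, the replicate block and leaving out any 1 of the 6 libraries compared (highest adjusted p = 0.192).

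**Figure D5:**
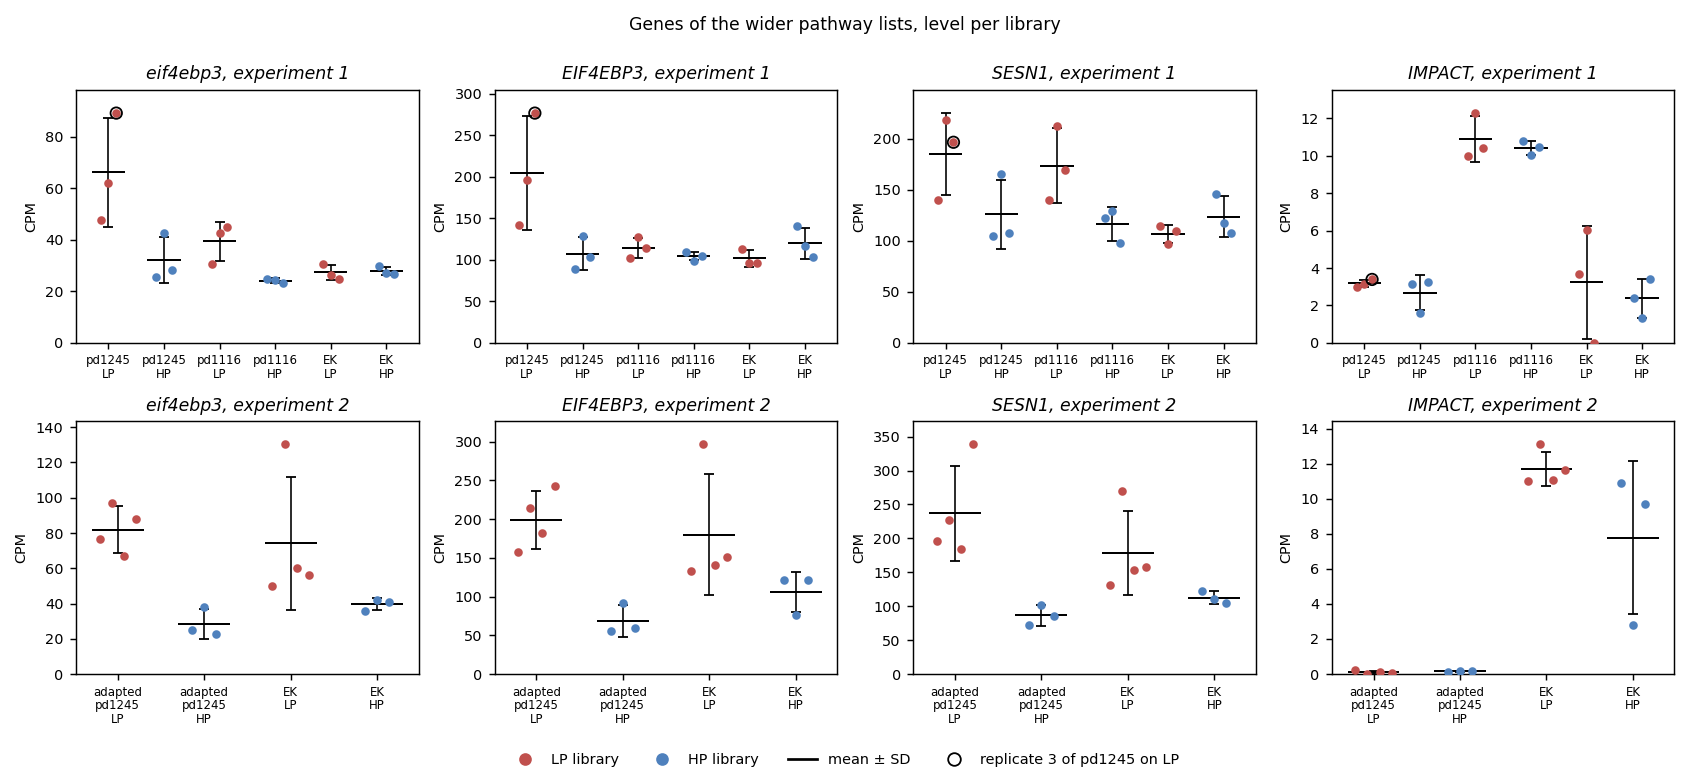
CPM per library (points) with the mean and SD of each group (lines) for eif4ebp3, EIF4EBP3, SESN1 and IMPACT in experiment 1 (top) and experiment 2 (bottom), with red LP and blue HP libraries and a ring around replicate 3 of pd1245 on LP. The adapted LP libraries lie above the adapted HP libraries for the first 3 genes, and IMPACT is near 0 in all adapted libraries. The share of all genes separated by diet in this way is not given.

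In the remaining line comparisons the calls among the 50 genes are set beside the share of all genes called. pd1245 larvae on HP (4.16% of all genes) had 1 gene higher than EK, CTH (ENSDARG00000032206, 0.61 ± 0.15, adjusted p = 0.0282), which encodes an enzyme of cysteine synthesis, and 1 lower, MTHFD1L (-0.83 ± 0.21, adjusted p = 0.0344). The symbol cth matched 2 genes, and only this copy was called in the comparisons where CTH is named. pd1116 larvae on LP (6.68% of all genes) had 3 higher than EK, atf5b (0.46 ± 0.10, adjusted p = 0.0109), SESN1 (0.70 ± 0.19, adjusted p = 0.0338) and pycr1a (0.38 ± 0.11, adjusted p = 0.0466), and PSAT1 lower (-0.52 ± 0.15, adjusted p = 0.0456). On HP (2.9% of all genes), pd1116 larvae had MTHFD1L lower than EK (-0.82 ± 0.21, adjusted p = 0.0445) beside the IMPACT call. Adapted larvae on LP (2.36% of all genes) had CTH higher than EK (1.62 ± 0.40, adjusted p = 0.0373), a call lost in 10 of 21 other settings. Of the calls in experiment 1, over 25 other settings, CTH was lost in 6, MTHFD1L in 4 for pd1245 and 12 for pd1116, SESN1 in 5, atf5b in 3, pycr1a in 13 and PSAT1 in 9.

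The genes whose levels ran most like trib3 over the 18 libraries of experiment 1, among 13518 ranked, were nufip1 (Pearson r = 0.954), CISH (0.953), rsrp1 (0.951), RCL1 (0.948) and ptpn1 (0.941). Those running most opposite were hnrnpul1 (-0.963), kif15 (-0.949) and ccdc80l2 (-0.948). Over the 14 libraries of experiment 2 the same 5 genes had r of 0.055, 0.378, 0.113, 0.268 and -0.196, and the 3 opposite ones -0.184, -0.519 and -0.180. Of the stress response genes themselves, eif2ak4 (r = 0.868), atf3 (0.866), atf4a (0.863) and sesn2 (0.809) ran closest to trib3 in experiment 1. Among the 13518 ranked, 257, 273, 288 and 752 genes had a higher r than these, in the same order. Further off lay atf4b (0.724), ddit3 (0.477), ddit4 (0.106) and asns (-0.078). In experiment 2 eif2ak4 was at -0.162, atf3 at 0.276, atf4a at 0.259 and sesn2 at 0.344. There ddit4 (0.494) and atf4b (0.424) ran closer to trib3, with ddit3 at 0.164 and asns at -0.430. By rank (Spearman) the order in experiment 1 was another: atf4a 0.891, atf3 0.785, sesn2 0.682 and eif2ak4 0.649. Then came atf4b 0.428, ddit3 0.222, asns 0.098 and ddit4 -0.108. These correlations are descriptions over libraries that share 6 or 4 groups, and in experiment 1 replicate 3 of pd1245 on LP lies at the far end of trib3.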

How the data were processed

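Libraries of experiment 1 were poly(A) selected and kept the strand through dUTP, per the labels' protocols; those of experiment 2 were stranded, sequenced from 1 end and carried molecular identifiers. Tools are listed per the submitters' processing notes: STAR 2.7.3a, HTSeq 0.11.1, Trim Galore 0.6.5 and FastQC 0.11.7 for experiment 1, and Subread 2.1.1 (featureCounts), STAR 2.7.11, fastp 0.24.0, MultiQC 1.32, SAMtools 1.22.1 and FastQC 0.12.1 for experiment 2, with the build GRCz11. The annotation release, strand setting and use of the molecular identifiers are not given in the sources used here. The deposited values of experiment 1 are raw counts per gene; rows that name no gene, 14.6 to 16.8% of all reads listed, were left out. The deposited values of experiment 2 are expected counts made by the authors, whole within 0.005 for 78.3 to 84.8% of values above 0, and were rounded; 92 spike-in rows were left out. The authors' variance-stabilised table was not used.

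Each experiment was fitted with edgeR 4.0.16 in R 4.3.3: TMM scaling, filterByExpr, 1 coefficient per group, all groups in 1 fit, quasi-likelihood F test, 2-sided, Benjamini-Hochberg adjustment over 22742 genes (experiment 1) or 16671 genes (experiment 2), threshold 0.05, prior count 0.125. SE was computed as the absolute log2 fold change divided by sqrt(F). CPM uses TMM-scaled library sizes. The script was tested on simulated data. Members and gene lists were chosen with earlier results of these data known. All 10 members are named; of the 50 other pathway genes, the rule names up to 4 called genes per direction and comparison with the smallest p. The genes most and least like trib3 were ranked by log2 CPM with a prior count of 2, among genes with a mean of at least 2 CPM in experiment 1. IMPACT and SESN1 are also given in groups where the rule did not name them. Replicate numbers did not pair libraries: in 0 of 15 pairs of groups (experiment 1) and 0 of 6 (experiment 2) did every pair correlate above 0.1. Alternatives were DESeq2 1.42.0, scaling by RLE or upper quartile, testing without a filter or with one of 50 counts, adding a replicate block, fitting the compared groups alone, and dropping libraries in turn. Limits on 0 counts cover counting error only.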

Additional observations from a re-analysis of the deposited data

Results flagged for a closer look

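The diet effect differed between pd1245 and EK, by the interaction test, for 3 of the 9 stress response genes tested and 5 of the 50 other pathway genes, beside 5.7% of all genes. On the log2 scale the differences were 1.35 for trib3, 0.66 for eif2ak4 and -0.77 for asns. They were 1.17 for EIF4EBP3 (ENSDARG00000041607), 1.07 for eif4ebp3 (ENSDARG00000054916), 0.65 for pycr1b, -0.85 for CTH (ENSDARG00000032206) and -1.26 for slc7a11. Over 25 other settings, mostly leaving out 1 library, these calls were lost in 3 for EIF4EBP3, 8 for eif4ebp3, 13 for pycr1b, 4 for CTH and 6 for slc7a11.

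In groups of 4 libraries, 1 library lay far from the others for 3 of 54 gene and group sets examined, where chance gives 2.7. atf3 had 47.6 CPM in replicate 2 of the adapted line on LP, against 26.0 to 29.4 CPM in the other 3. Replicate 2 of EK on LP in experiment 2 had 296 CPM of EIF4EBP3 and 130 CPM of eif4ebp3, against 133 to 151 CPM and 50.2 to 60.3 CPM in the other 3.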

How the results depend on the processing

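Over the alternatives, 3179 of the settings tried for single members kept direction and side of the threshold, 71 lost a call, 27 gained one and 12 reversed an uncalled value. trib3 kept its call in all 25 settings for pd1245 against EK on LP (log2 fold change 0.99 to 1.53) and for the interaction of pd1245 with EK (1.00 to 1.54). eif2ak4 kept its call in all 25 for pd1245 against EK on LP (0.60 to 0.86), and asns in all 25 for pd1116 against EK on LP (-0.87 to -0.65). The diet calls of trib3 and eif2ak4 in pd1245 were lost only when the groups compared were fitted alone.

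Members called are given with the share of all genes called under the same setting. Fitting only the groups compared, they were 0 for diet in pd1245 (0%), 3 for diet in pd1116 (16.5%), 1 for diet in the adapted line (4.38%), 2 for pd1245 against EK on LP (15.1%), 2 for pd1116 against EK on LP (14.6%), 2 for pd1116 against EK on HP (4.51%), 1 for the interaction of pd1245 with EK (1.64%) and 1 for that of pd1116 with EK (2.66%). Without a filter they were 1 for pd1116 against EK on HP (2.3%) and 1 for the adapted line against EK on LP (1.99%), and with DESeq2 1 for pd1116 against EK on HP (3.79%). With a replicate block 1 gene was called for the interaction of pd1245 with EK in place of 3 (4.05%); the samples share only a number, and in no other comparison did the block move the count by over 1.5 times. Leaving out each library gave 2 to 7 for diet in pd1245 (5.57 to 25.2%), 0 to 3 for diet in pd1116 (2.27 to 15.2%), 2 to 7 for pd1245 against EK on LP (23 to 34.1%), 0 to 2 for pd1116 against EK on HP (1.7 to 5.42%), 0 to 1 for the adapted line against EK on HP (0.742 to 1.81%), 1 to 5 for the interaction of pd1245 with EK (1.7 to 12.4%) and 0 to 1 for that of pd1245 with pd1116 (0.0869 to 2.12%). Beyond replicate 3 of pd1245 on LP, the diet count in pd1245 fell to 2 without replicate 1 or replicate 3 of pd1245 on HP, and the count against EK on LP to 3 or 4 without an EK library on LP. eif2ak4 lost its diet call in pd1116 without replicate 3 on HP, or replicate 1 or 3 on LP. asns lost its interaction call in 17 of 25 settings and eif2ak4 in 9. The causes were not tested.

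Reversed values, none of them called, came from leaving out 1 library, and each is given with its range over the libraries left out. Without replicate 3 of pd1116 on LP, atf3 was at -0.16 (to 0.78) for diet in pd1116, -0.42 (to 0.66) for pd1116 against EK on LP and -0.13 (to 0.96) for the interaction of pd1116 with EK. ddit3 was then at -0.11 (to 0.24) for pd1116 against EK on LP, and without replicate 1 at 0.14 (from -0.22) for diet in pd1116. When replicate 3 of EK on HP in experiment 2 was left out, atf3 was at 0.12 (from -0.28) and ddit4 at 0.033 (from -1.03) for diet in EK, and atf3 at 0.087 (from -0.40) and eif2ak4 at 0.44 (from -0.30) for the adapted line against EK on HP. When replicate 3 of pd1245 on LP was left out, ddit3 was at -0.011 (to 0.32) for pd1245 against EK on LP, and atf4a at -0.016 (to 0.40) and sesn2 at -0.22 (to 0.39) for the interaction of pd1245 with pd1116.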
